A study of Mus musculus with 10 samples.

Results

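G9a is the histone methyltransferase encoded by Ehmt2, and H1093K is a form of it whose label calls it a catalytic mutant. The comparison described here set mouse embryonic fibroblasts that lacked G9a and had received FLAG-tagged H1093K against the same kind of cells that had received an empty vector, called delta. It rests on 4 of the 10 arrays of the study, 2 H1093K arrays and 2 delta arrays, chosen by their titles. The other groups, also of 2 arrays each, carried FLAG-tagged wild-type G9a (WT), FLAG-tagged G9a with the K165A substitution (K165A), or were titled only as deleted. All 4 vector groups share the deletion of G9a, so none of them is an unmanipulated fibroblast. The labels give no strain, age, promoter of the vector, number of clones or time after transfer of the vector. They do not say whether a group's arrays stem from different cultures, so p-values measure only the spread between arrays, which may be technical.

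G9a, in a complex with the related protein GLP, places methyl groups on lysine 9 of histone H3, a mark found at silent genes. It also carries ankyrin repeats that bind methylated histone tails, and it methylates other proteins and itself. A catalytic mutant beside an empty vector therefore addresses which transcripts differ when the protein is supplied without its enzymatic activity.

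Messenger RNA was measured on Affymetrix 3' arrays as deposited signal intensities, on a linear scale with no unit, in which the trimmed mean of each array was about 500.1. Median signals of the 10 arrays ranged from 181 to 199. Signals were taken as log2(signal + 16), so folds given here are on that scale and understate the change of dim genes. The Pearson correlation was 0.986 between the H1093K arrays and 0.984 between the delta arrays. It was 0.987 and 0.986 between H1093K and delta arrays of the same replicate number, and 0.976 and 0.981 between those of different number. Fibroblast markers were bright on the 4 arrays, with Col1a1, a chain of type I collagen, at 7011 to 9693 and Vim, the intermediate filament vimentin, at 9945 to 11662. Dcn and Lum, also in that list, lay at 5.59 to 32.1 and 15.6 to 28.3. Markers of other cell types under 16 on all 4 arrays numbered 0 of 14 for epithelium, 1 of 13 for leukocytes, 2 of 12 for endothelium, 3 of 10 for neurons and 1 of 8 for skeletal muscle. Some of the others were bright, such as Krt7 of epithelium at 1742 to 2660, and Stmn2 and Ncam1 of neurons at 713 to 918 and 586 to 727. Cd14 of leukocytes, at 149 to 199, lay near the array medians, and Epcam of epithelium was at 4.03 to 35.9.

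Ehmt2 was measured by a probe set that was not higher with H1093K than with the empty vector. Its signal was 473 and 415 on the delta arrays and 461 and 494 on the H1093K arrays. These ranges overlap, and the log2 difference was 0.10, with a 95% interval from -0.10 to 0.31 (limma, adjusted p = 0.737). On the WT arrays it was 676 and 620, and H1093K lay 0.43 lower on the log2 scale than WT (limma, adjusted p = 0.0185). A second Ehmt2 probe set was too dim to be tested, at 7.13 and 36.5 on the delta arrays and 116 and 55.7 on the H1093K arrays. The labels do not place either probe set with respect to the deletion or the vector insert. The level of H1093K transcript can therefore not be read from them, and the direction of every difference below rests on the titles.

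Few transcripts differed between H1093K and the empty vector. Of 13576 probe sets tested, 111 (0.818%) passed an adjusted p under 0.05 in limma, 61 higher with H1093K (0.449%) and 50 lower (0.368%). They covered 86 genes, of which 46 were higher and 40 lower. The median rise among them was 0.74 and the median fall -0.57 on the log2 scale, against a median absolute difference of 0.113 over all probe sets tested. Only 12 of the 111 exceeded a 2-fold difference. The H1093K and delta arrays did not overlap for any of the 111, and they did not overlap for 40.6% of all probe sets tested. Against WT, in the same fit, 1090 probe sets passed for H1093K (8.03%), 550 higher (4.05%) and 540 lower (3.98%).

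The number of calls depended on how the spread was estimated. With only the 4 arrays compared, limma called 0 probe sets, although 1399 had an unadjusted p under 0.05 and the adjusted p values started at 0.0648. Adding the replicate number as a block gave 472 calls, which included all 111. Leaving out delta replicate 1 gave 36 calls and delta replicate 2 gave 17. Leaving out H1093K replicate 1 gave 14 and H1093K replicate 2 gave 7. For a single gene, an exact permutation test of 2 arrays against 2 cannot give a p below 0.333.

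**Figure D1:**
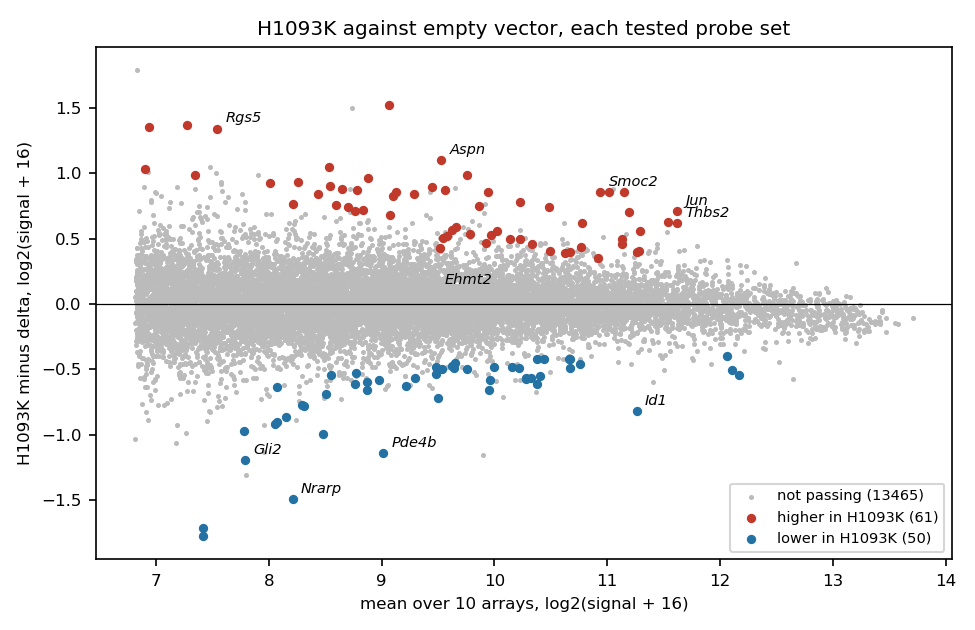
Log2 difference of H1093K from delta for each probe set tested (vertical axis) against its mean log2 signal over the arrays (horizontal axis). The 111 probe sets past the threshold are coloured by direction, 61 higher and 50 lower, and most of the 13576 lie close to 0.

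The loss of any single array left 7 of the 111 calls in place. These probe sets measured Aspn, Smoc2 (by 2 probe sets), Tgfbi, Nrep, Jun and 1 transcript with no gene name. Of the 111, 77 were kept in 0 of the 4 fits that each left out an array. The probe set with no gene name had the largest fall of all, from 387 and 419 on the delta arrays to 105 and 109 on the H1093K arrays (log2 difference -1.77, limma adjusted p = 0.00149).

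Among genes of the extracellular matrix, 4 of 60 measured members of the list rose with H1093K and 0 fell, beside 0.504% of all 7742 genes that rose and 0.465% that fell. The median difference of the list was -0.03, beside -0.01 over all genes. With the replicate block 5 members rose and 1 fell, and over all genes 134 rose and 141 fell, together 3.55% of the 7742. Tgfbi, a secreted protein that binds collagens and integrins, read 1206 and 1271 on the delta arrays and 2016 and 2040 on the H1093K arrays. The H1093K arrays were both higher, by 0.71 on the log2 scale (limma, adjusted p = 0.00444), and WT lay higher again at 3815 and 3507. Thbs2, the matricellular protein thrombospondin 2, rose from 3323 and 3362 to 5070 and 5213 (log2 difference 0.62, limma adjusted p = 0.00612). Unlike Tgfbi it was at 2575 and 2492 in WT, so the H1093K arrays lay above both groups, and above WT by 1.02 (limma, adjusted p = 2.67e-05). Vcan, the large proteoglycan versican, rose by 0.52 (limma, adjusted p = 0.04) and Col8a1, a short-chain collagen, by 0.53 (limma, adjusted p = 0.0443). Of 3 tested Vcan probe sets only 1 passed, and the lowest difference was 0.15. The second Col8a1 probe set did not pass, at 0.40.

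Aspn, the small leucine-rich proteoglycan asporin, had the smallest adjusted p of the named genes. It read 372 and 334 with the empty vector and 755 and 796 with H1093K, a rise of 1.10 on the log2 scale (limma, adjusted p = 0.00149). WT was at 865 and 842, and the difference of H1093K from WT was -0.14 (limma, adjusted p = 0.426). A second Aspn probe set rose by 1.52 (limma, adjusted p = 0.0279). Smoc2, a calcium-binding matricellular protein, went from 1378 and 1480 to 2651 and 2541 (0.85, limma adjusted p = 0.00295) and stood at 3515 and 3746 in WT. Timp3, an inhibitor of matrix metalloproteases, went from 253 and 284 to 473 and 525 (0.86, limma adjusted p = 0.00444). The WT mean was 1153 ± 84.7 (SD, n = 2), so H1093K lay between, 1.18 below WT (limma, adjusted p = 4.27e-05). Of the 3 other Timp3 probe sets, none passed, with log2 differences of 0.62, 0.88 and 0.69. Fgl2, a fibrinogen-like secreted protein, rose from 77.1 and 60.1 to 234 and 169.6 (1.36, limma adjusted p = 0.0225).

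Secreted ligands were the next group. Pdgfc, a platelet-derived growth factor, rose from 656 and 535 to 1112 and 1035 (0.84, limma adjusted p = 0.0148). WT was below the empty vector for it, at 268 and 287, and H1093K exceeded WT by 1.89 (limma, adjusted p = 1.25e-05). A second Pdgfc probe set did not pass against delta, at 0.53. Angpt1, the ligand of the receptor Tie2 on endothelial cells, was near the floor with the empty vector, at 18.9 and 2.60, and at 47.4 and 52.5 with H1093K (1.37 on the log2 scale, limma adjusted p = 0.0447). No fold is given because the delta mean lay under 16. The WT arrays were at 591 and 521, so H1093K remained 3.12 below WT (limma, adjusted p = 5.62e-05). The signal filter used the mean over all 10 arrays, so Angpt1 was tested because of the groups where it was bright. Its call and its place between the groups are therefore a description. Of 38 measured growth factors and their binding proteins, these 2 rose and 0 fell, with a median of 0.07. Over all 7742 genes 0.504% rose and 0.465% fell. With the replicate block 3 of the 38 rose and 2 fell, beside 3.55% of all genes that passed.

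Transcription factors followed. Of 38 measured Hox and patterning factors, 3 rose and 0 fell (median 0.06), beside 0.504% and 0.465% of all 7742 genes. With the replicate block 3 rose and 2 fell, beside 3.55% of all genes that passed. Osr2, a zinc finger factor of limb and palate development, read 195 and 240 with the empty vector and 368 and 428 with H1093K (0.83, limma adjusted p = 0.0227). Mef2c, a factor of muscle and vessel development, read 46.9 and 42.8 and then 102 and 107 (0.99, limma adjusted p = 0.0279). A second tested Mef2c probe set gave 0.65 (limma, adjusted p = 0.27). WT exceeded H1093K for both genes (limma, adjusted p = 1.8e-05 for Osr2 and 0.000419 for Mef2c). Foxd1, a forkhead factor of stromal cells, behaved otherwise. It rose from 340 and 337 to 577 and 591 (0.76, limma adjusted p = 0.0145) and was 0.45 above WT (limma, adjusted p = 0.0232).

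Of 42 immediate early genes, which respond quickly to growth signals, 2 rose and 2 fell, beside 0.504% and 0.465% of all 7742 genes. Of the 42, 30 lay below 0 (median -0.13), beside 4042 of all 7742 genes below 0. With the replicate block 3 rose and 5 fell, beside 3.55% of all genes that passed. Jun, a subunit of the AP-1 factor, read 1623 on both delta arrays and 2672 and 2647 on the H1093K arrays (0.71, limma adjusted p = 0.00295). It was at 3804 and 3718 in WT, above H1093K. A second tested Jun probe set did not pass, with a log2 difference of 0.38. Egr2, a zinc finger factor, rose by 0.87 (limma, adjusted p = 0.0187), although its second probe set did not pass (0.99, limma adjusted p = 0.282). The members that fell were Ier3, from 6289 and 6510 to 4283 and 4495, and Noct, a phosphatase with a circadian rhythm in liver, from 2146 and 2193 to 1473 and 1441.

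Other named genes that rose were Rgs5, a regulator of G protein signalling found in pericytes (1.34), Nrep (0.99), Trib2, a pseudokinase (0.93), Plekha4 (0.88), Tspan13, a tetraspanin (0.86), and Kcnab1, a potassium channel subunit (0.77). For Plekha4 the second tested probe set gave -0.13. Among the 15 genes with the largest rise, 8 had H1093K arrays between delta and all 4 arrays of WT and K165A, namely Angpt1, Mef2c, Nrep, Osr2, Smoc2, Timp3, Trib2 and Tspan13. For 5 of them (Fgl2, Kcnab1, Pdgfc, Plekha4, Rgs5) H1093K lay above all 6 other arrays, and for Aspn and Egr2 it lay above delta and overlapped the range of WT and K165A. Every comparison with delta shares the same delta arrays, so these positions are a description. The 15 genes were picked for arrays above delta without overlap, and the share of such positions over all genes was not counted.

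**Figure D2:**
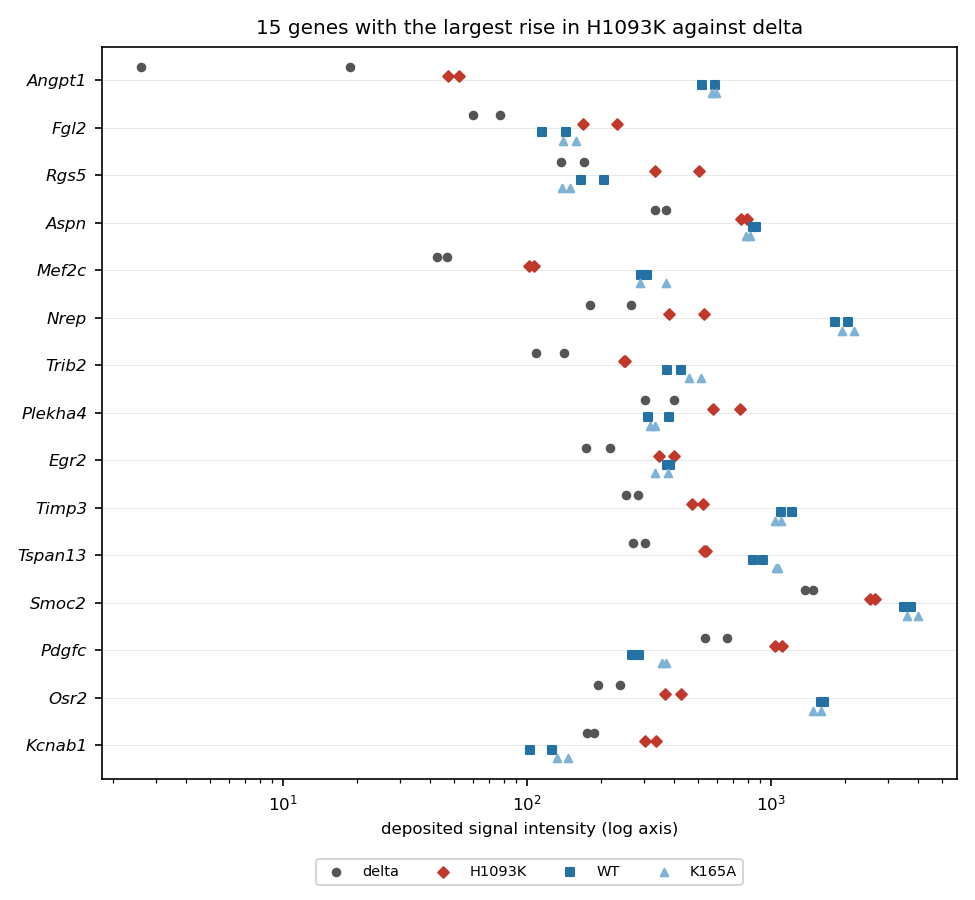
Deposited signal on a log axis for the 15 genes with the largest rise, 1 point per array, for delta, H1093K, WT and K165A. Aspn in H1093K (755 and 796) lies beside WT (865 and 842), whereas Pdgfc in H1093K (1112 and 1035) lies above every other group.

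Genes that fell included the inhibitors of DNA binding, or Id proteins, which block basic helix-loop-helix factors and are textbook targets of bone morphogenetic protein (BMP) signalling. Smad factors downstream of BMP bind GC-rich elements such as GGCGCC. The promoters of Id3 and Id4 are shown because a probe set of each passed with a fall. They are given as 300 bases around the start of the gene in RefSeq on GRCm38.p6, with any GGCGCC in capitals. No such window was available for Id1, and that of Id2, which did not pass, is not shown. That sequence reads the same on both strands. The Id3 window is chr4:136143572-136143871 and the Id4 window chr13:48260866-48261165, both on the plus strand.
Id3: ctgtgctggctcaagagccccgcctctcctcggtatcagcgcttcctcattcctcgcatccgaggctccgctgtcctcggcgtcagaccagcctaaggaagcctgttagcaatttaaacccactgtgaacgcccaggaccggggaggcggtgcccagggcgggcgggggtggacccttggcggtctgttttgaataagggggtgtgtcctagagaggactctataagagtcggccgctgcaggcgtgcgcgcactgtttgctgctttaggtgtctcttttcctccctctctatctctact
Id4: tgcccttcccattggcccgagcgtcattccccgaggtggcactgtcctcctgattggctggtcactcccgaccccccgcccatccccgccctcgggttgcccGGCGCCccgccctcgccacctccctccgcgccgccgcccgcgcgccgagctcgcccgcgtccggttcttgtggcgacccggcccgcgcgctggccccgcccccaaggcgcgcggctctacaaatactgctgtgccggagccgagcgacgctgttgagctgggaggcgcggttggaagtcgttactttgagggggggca
The Id4 window held 1 such element and the Id3 window 0, and 11.9% of 32841 promoter windows of this length held at least 1. A match is a description of these letters only.

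Id1 fell from 2917 and 2960 on the delta arrays to 1784 and 1543 on the H1093K arrays (log2 difference -0.82, 95% interval -1.02 to -0.62, limma adjusted p = 0.00444). WT was at 3373 and 3215, so the mutant lay below both the empty vector and WT, the latter by 0.98 on the log2 scale (limma, adjusted p = 9.63e-05). Id3 fell from 4632 and 5008 to 3283 and 3492 (-0.51, limma adjusted p = 0.0443). Id4 fell from 359 and 336 to 198 and 162 (-0.90, limma adjusted p = 0.019). Of the other Id4 probe sets, one gave -0.82 (limma, adjusted p = 0.0725) and another 0.18 (limma, adjusted p = 0.881), so the probe sets of Id4 disagree. Id2, singled out after its values were seen, gave -0.37 (limma, adjusted p = 0.0787; 0.0223 with the replicate block). The adjusted p of Id1 ranged from 0.0281 to 0.067 when single arrays were left out and that of Id3 from 0.103 to 0.28.

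Nrarp, an ankyrin repeat protein induced by Notch that limits Notch signalling, had the largest fall of the named genes. It read 722 and 838 with the empty vector and 261 and 272 with H1093K (-1.49, limma adjusted p = 0.0187). WT was at 273 and 275, and H1093K and WT differed by -0.04 (limma, adjusted p = 0.946). A second probe set fell by 1.72 on the log2 scale (limma, adjusted p = 0.0463). Of 40 measured members of the BMP, TGF-beta and Notch pathways, 4 fell and 0 rose, beside 0.465% and 0.504% of all 7742 genes. The 4 were the 3 Id genes and Nrarp, and the median of the list was -0.003. With the replicate block 9 of the 40 fell and 3 rose, beside the 3.55% of all genes that passed in that fit. Hey1 and Hes1, Notch targets, and Smad6 and Smad7, inhibitors of BMP and TGF-beta signalling, were also singled out after their values were seen. Their differences were -0.98, -0.41, -0.37 and -0.53, with limma adjusted p of 0.0608, 0.0891, 0.122 and 0.135, and of 0.0219, 0.0304, 0.0428 and 0.0163 with the replicate block. Bmp4, a BMP ligand, gave 0.70 (limma, adjusted p = 0.0542; 0.0132 with the replicate block). Tgfb2 and Tgfb1 gave 0.47 and 0.42 (limma, adjusted p = 0.0679 and 0.52; 0.0163 and 0.0219 with the replicate block). Bmp4, Tgfb2 and Tgfb1 were the 3 members that rose with the block.

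Further falls concerned other signalling genes. Gli2, a transcription factor of the Hedgehog pathway, fell from 184 and 154 to 68.3 and 61.1 (-1.19, limma adjusted p = 0.0114) and was at 248 and 304 in WT. Its second probe set gave -0.83 (limma, adjusted p = 0.343). Pde4b, an enzyme that degrades cyclic AMP, fell from 590 and 614 to 290.3 and 241 (-1.14, limma adjusted p = 0.00742), and its second probe set fell by 0.92 (limma, adjusted p = 0.0313). Sulf2, which trims heparan sulphate, fell by 0.99 and Gpc3, a heparan sulphate proteoglycan of the cell surface, by 0.65 on the log2 scale (limma, adjusted p = 0.0227 for each). Gpc3 was at 677 and 795 with the empty vector, 429 and 493 with H1093K and 1633 and 1644 with WT. Grb14, an adaptor that inhibits the insulin receptor, fell by 0.86, Rcan2, an inhibitor of calcineurin, by 0.78, and C1qtnf12, a secreted adipokine, by 0.72. The 3 other C1qtnf12 probe sets did not pass, at -0.24, -0.07 and -0.25. Neu1, a lysosomal sialidase, Ccnd2, cyclin D2, Lbh, Rab12 and Ptx3, a pentraxin, fell by 0.58 to 0.63. Of 5 tested Ccnd2 probe sets only 1 passed (differences -0.69 to -0.30), and the second Lbh probe set did not pass (-0.44).

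Of the 15 genes with the largest fall, 9 had H1093K arrays below all 6 arrays of delta, WT and K165A (C1qtnf12, Gli2, Gpc3, Id1, Id4, Pde4b, Ptx3, Rcan2 and Sulf2). For Ccnd2, Grb14, Lbh and Neu1 they lay between delta and the WT and K165A arrays. The 15 genes were picked for arrays below delta without overlap, so only the position against WT and K165A was open. The share of such positions over all genes was not counted. The log2 differences of those 9 from WT ran from -0.65 for Ptx3 to -1.85 for Gli2, and their sign follows from how the 9 were picked.

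**Figure D3:**
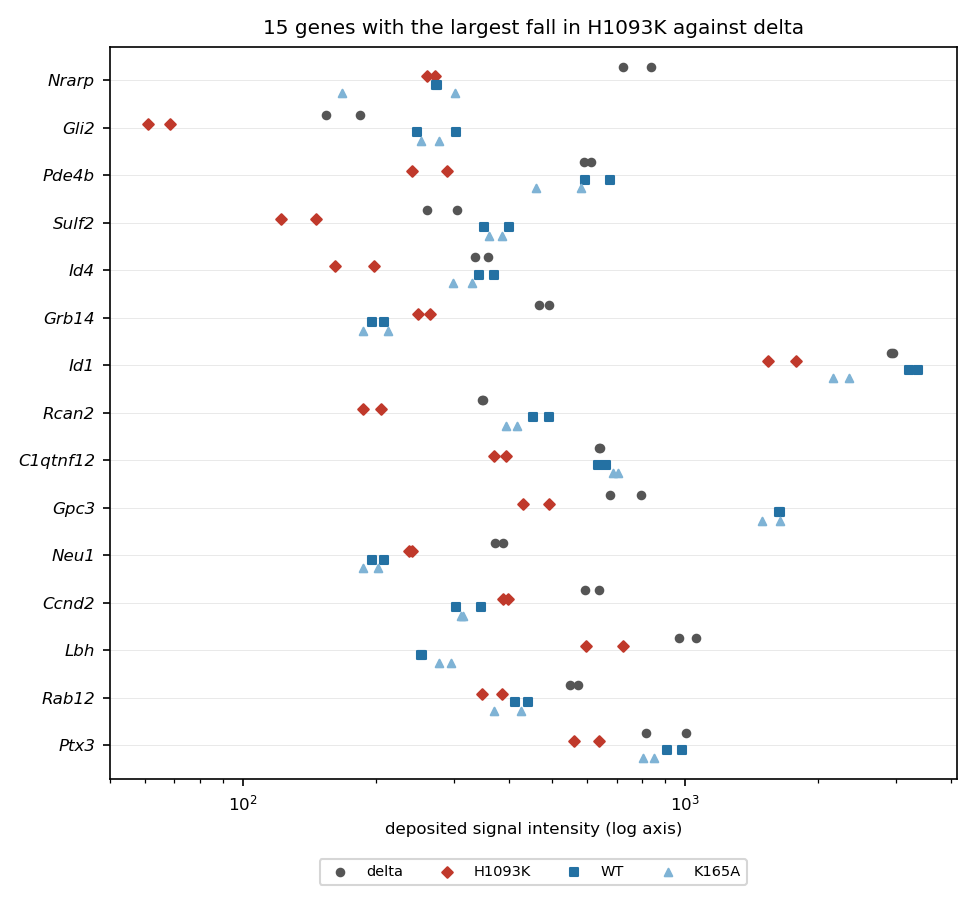
Deposited signal on a log axis for the 15 genes with the largest fall, 1 point per array, for delta, H1093K, WT and K165A. Id1 in H1093K (1784 and 1543) lies below every other group, whereas Nrarp in H1093K (261 and 272) lies beside WT (273 and 275).

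Earlier results of these arrays had named 14 genes for WT against the empty vector. Of these, Angpt1, Osr2 and Mef2c passed in H1093K against delta, and Bmp4 and Krt7 also passed with the replicate block (adjusted p = 0.0132 and 0.0366). The H1093K arrays lay between delta and the WT and K165A arrays for 7 of the 14 (Angpt1, Bmp4, Eomes, Krt7, Mef2c, Osr2 and Ppbp), and overlapped the delta arrays for 4 (Aldh1a1, Fbn2, Igfbp2 and Oas3). For Actg2, Oas2 and Sfrp2 they lay beyond delta on the side away from WT. These genes were chosen on a contrast that uses the same delta and WT arrays, so their values are a description. Fbn2, fibrillin 2 of elastic microfibrils, was at 57.9 and 42.3 with the empty vector, 49.7 and 46.6 with H1093K and 632 and 647 with WT. Igfbp2, a binding protein of insulin-like growth factors, was at 41.9 and 27.8, 51.7 and 34.0, and 546 and 514 in the same order. For both genes the H1093K arrays overlapped the delta arrays. Oas2, an interferon-induced antiviral enzyme, was at 1350 and 1354 with the empty vector, 1623 and 1592 with H1093K and 181 and 133 with WT. Actg2, a smooth muscle actin, was at 514 and 591, then 631 and 663, and 59.5 and 48.7 with WT. Eomes, a T-box factor of mesoderm, was among those between, at 306 and 339 with the empty vector, 429 and 463 with H1093K and 1776 and 1919 with WT.

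Sfrp2, a secreted Wnt antagonist, was at 8822 and 7499 with WT. It read 484 and 112 on the delta arrays and 104 and 91.8 on the H1093K arrays, and the delta replicates were far apart. The log2 difference was -1.15 (limma, adjusted p = 0.349), and the adjusted p ranged from 0.000639 to 0.686 when single arrays were left out, the lowest of these without delta replicate 2.

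**Figure D4:**
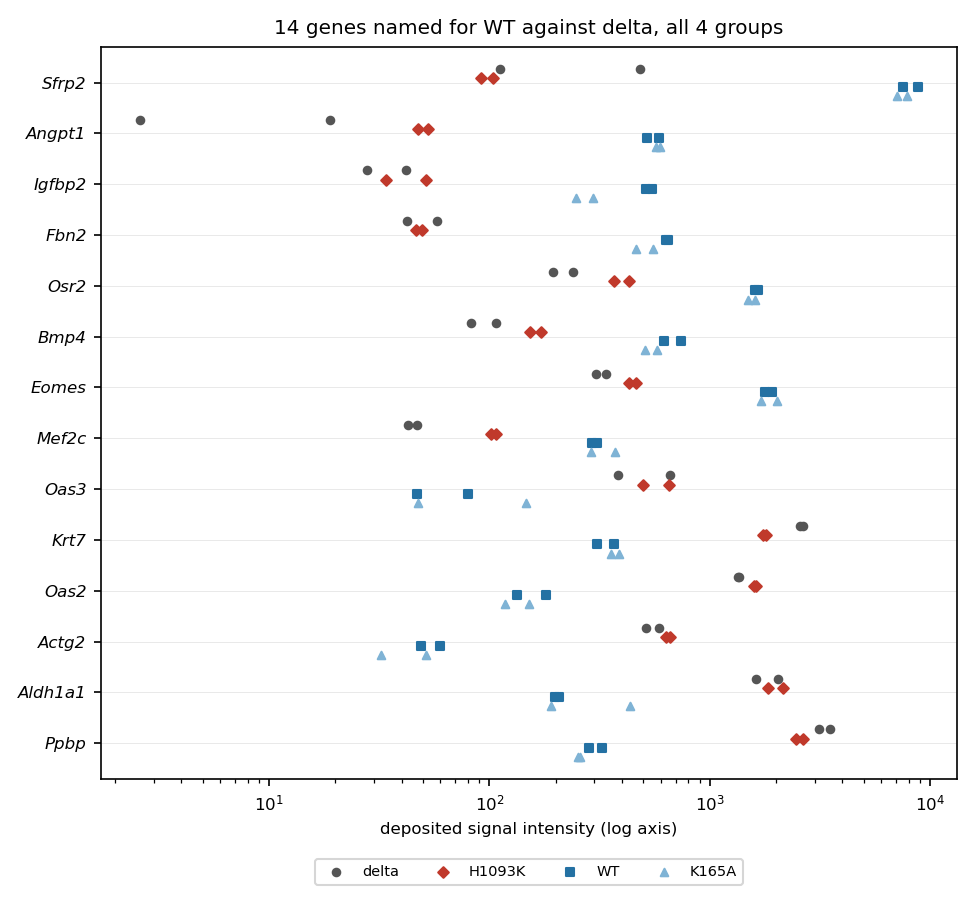
Deposited signal on a log axis for the 14 genes named for WT against delta, 1 point per array, for delta, H1093K, WT and K165A. Fbn2 in H1093K (49.7 and 46.6) overlaps delta and lies far below WT (632 and 647), and Osr2 in H1093K (368 and 428) lies between them.

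Counted over genes by their brightest probe set, 687 of 7742 (8.87%) differed between H1093K and WT, 353 higher in H1093K (4.56%) and 334 lower (4.31%). Cholesterol synthesis genes were among the higher, with 13 of 22 above WT and 0 below, and so were interferon-stimulated genes, with 19 of 39 above and 0 below. Of immediate early genes 16 of 42 were lower than in WT and 3 higher, and of Wnt pathway genes 10 of 24 were lower and 0 higher. Of mitosis genes 0 of 45 differed from WT at this threshold.

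Most lists of pathway genes held few or no calls. Over all 7742 genes 0.504% rose and 0.465% fell, and 3.55% passed with the replicate block. Of 39 interferon-stimulated genes, Ifit2 and Ifit3 rose, each by 0.49 (limma, adjusted p = 0.0349 and 0.0214), 0 fell, and 32 lay above 0 (median 0.16), beside 3700 of all 7742 genes above 0. With the replicate block 4 rose and 1 fell. Ifit3 was at 2118 and 2115 with the empty vector, 2876 and 3100 with H1093K and 3370 and 3201 with WT. Of 45 mitosis genes, 42 lay above 0 (median 0.18), beside those 3700 of 7742, and 1 rose, Ccnb2, cyclin B2, from 1364 and 1342 to 1818 and 1861 (0.44, limma adjusted p = 0.0227). With the replicate block 3 mitosis genes rose. Of 39 p53 targets and cell cycle inhibitors, Gadd45a, a stress sensor of DNA damage, rose (0.71, limma adjusted p = 0.0313), and Ccng1, cyclin G1, and Mdm2, the ligase that degrades p53, fell (-0.57 and -0.42, limma adjusted p = 0.0279 and 0.0443). With the replicate block 1 rose and 5 fell. Of 3 tested Ccng1 probe sets only 1 passed (differences -0.62 to -0.40), and the second Mdm2 probe set did not pass (-0.29). C1ra, a complement protease, was the only 1 of 32 chemokine and inflammatory genes to pass (0.47, limma adjusted p = 0.0443), and with the replicate block 4 rose and 2 fell.

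No member passed among 20 measured partners of G9a and H3K9 methylation genes (median 0.01), 16 imprinted genes (-0.08), 16 genes of MHC class I and antigen processing (-0.11), 24 Wnt pathway genes (-0.05), 24 smooth muscle genes (-0.07), 36 DNA replication genes (0.03), or 44 genes of amino acid synthesis and the unfolded protein response (-0.02). Of 22 cholesterol synthesis genes 0 passed by their brightest probe set (median 0.09), and 3 rose with the replicate block. A less bright probe set of Hmgcs1 passed, with a rise of 0.50. Of 7 measured bone and cartilage genes 0 passed, with a median of 0.53, and 2 rose with the replicate block. In that fit 2 DNA replication genes also rose and 1 imprinted gene fell. Over all genes, 75 of 7742 (0.969%) passed by their brightest probe set, and 275 (3.55%) with the replicate block.

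Of 11 measured keratins and desmosome genes 0 passed and 8 lay below 0 (median -0.28), beside 4042 of all 7742 genes below 0. With the replicate block 4 fell, beside 3.55% of all genes that passed in that fit. Krt7, a keratin of simple epithelia, was at 2660 and 2557 with the empty vector, 1804 and 1742 with H1093K (-0.55, limma adjusted p = 0.0988; 0.0366 with the replicate block). The summed signal of the 14 epithelial markers, of which Krt7 was the brightest, was 5346 and 4820 on the delta arrays and 4069 and 3654 on the H1093K arrays. Of the 7 tested members 6 lay below 0, beside those 4042 of 7742 genes, and 1 lay above. The latter was Dsg2, at 160 and 111 on the delta arrays and 219 and 193 on the H1093K arrays. In bulk cultures, fewer cells of a type and less RNA per cell cannot be told apart. The summed signal of the 17 fibroblast markers overlapped, at 59923 and 69061 on the delta arrays and 56343 and 61720 on the H1093K arrays. The sums also overlapped for the leukocyte, endothelial and neural markers, and that of 8 skeletal muscle markers, none bright enough to be tested, was 498 and 478 against 434 and 460. The part of such shifts in the other differences was not tested.

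**Figure D5:**
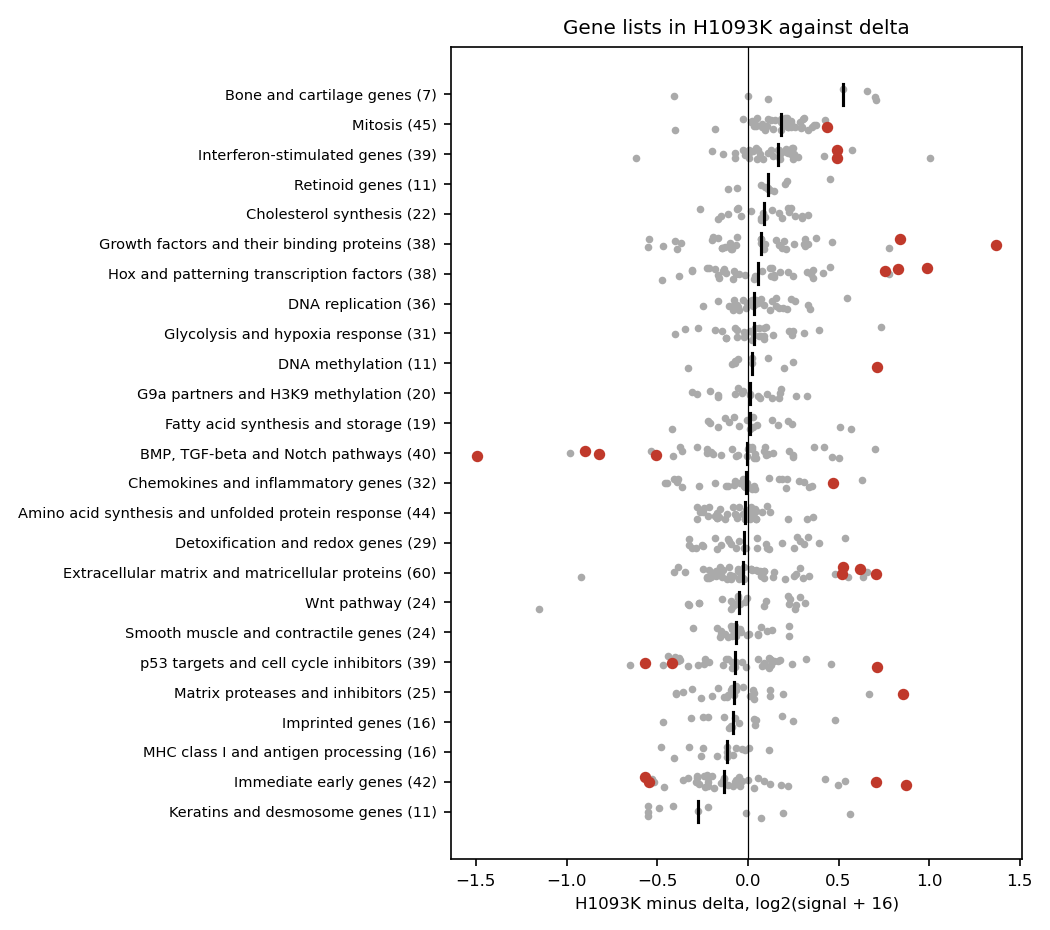
Log2 difference of H1093K from delta (horizontal axis) for each measured member of the gene lists, 1 point per gene, with the number of members in brackets, a bar at the median and genes past the threshold in red. The 4 red points of the BMP, TGF-beta and Notch list lie below 0 and the 4 of the extracellular matrix list above 0.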

How the data were processed

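The deposited values are signal intensities per probe set, made by the authors with GCOS 1.4 per the submitters' processing notes; its options and the genome build are not given in the sources used here. Of 22690 probe sets, 64 controls were left out, and 20380 of the rest had 1 gene in the platform annotation, 691 several and 1555 none. Values were taken as log2(signal + 16), and the 13576 probe sets at or above the 40th percentile of mean signal were tested in R 4.3.3 with limma 3.58.1 (lmFit with 1 mean per group on all 10 arrays, eBayes with an intensity trend, 5 residual and 4.73 prior degrees of freedom, Benjamini-Hochberg adjusted p under 0.05). The filter took the mean over all 10 arrays, so a gene dim on the 4 compared arrays could be tested through brighter groups. Genes measured more than once were represented by their brightest probe set. On simulated data of the H1093K and delta comparison over 13576 probe sets, the fit recovered 100% of changes of 2, 82% of 1, 80% of -1 and 48% of 0.5 on the log2 scale, with 12 false calls. These rates describe the simulated data. They need not hold for the real arrays, where deviations of same-numbered H1093K and delta arrays correlated at 0.53.

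Named genes are the 15 largest rises and 15 largest falls past the threshold with arrays that do not overlap, members of the lists that passed or had the smallest p, Ehmt2, and 14 genes named for WT by earlier results. The members, lists and rule were chosen with earlier results of these data known. The design text speaks of 2 independent analyses, and deviations of same-numbered arrays from their group means correlated at 0.23 to 0.53 in all 10 pairs of groups, so the replicate number was treated as a pairing and used as a block in an alternative fit. The number of arrays limits the precision. Alternatives changed the pseudocount, filter, scaling, arrays in the fit, variance prior and replicates.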

Additional observations from a re-analysis of the deposited data

How the results depend on the processing

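The 111 calls of H1093K against delta became 472 with the replicate block (247 higher, 225 lower), 60 with no filter on low signal, 65 in the 8 arrays without the pair titled deleted, 53 with no intensity trend and 0 with only the 4 arrays compared, and ranged from 7 to 36 when single arrays were left out. The other settings gave 80 to 127 calls. With median centring 52 were higher and 28 lower, against 61 and 50, and without the pair titled deleted 41 and 24. For H1093K against WT the 1090 calls became 1946 with the replicate block and 548 to 644 when single arrays were left out, and the other settings gave 865 to 1152. The cause of these shifts was not tested, beyond the fewer arrays or different number of probe sets that a setting itself brings. The sign turned for 21 differences of named genes, 0 of which had passed the threshold. In H1093K against delta this happened when single arrays were left out, with ranges on the log2 scale for Aldh1a1 (-0.0415 to 0.291), Cd14 (-0.153 to 0.226), Csf1r (-0.454 to 0.0455), Egfl7 (-0.463 to 0.223), Fbn2 (-0.204 to 0.139), Igfbp2 (-0.0095 to 0.428), Kdr (-0.129 to 0.145), L1cam (-0.332 to 0.494), Laptm5 (-0.342 to 0.723), Oas3 (-0.201 to 0.551). In H1093K against WT the ranges were those of Cd14 (-0.0229 to 0.0551), Cebpd (-0.105 to 0.0816), Csf1r (-0.345 to 0.155), Egfl7 (-0.357 to 0.329), Egr2 (-0.128 to 0.0677), Ifit2 (-0.0721 to 0.0563), Laptm5 (-1.03 to 0.0341), Pdk1 (-0.203 to 0.111), Rarb (-0.156 to 0.0502), Smad7 (-0.329 to 0.0557). With quantile normalization the difference from WT was 0.0229 for Cald1 (-0.17 otherwise) and 0.0158 for Egfl7 (-0.01 otherwise), and with median centring it was 0.0003 for Ifit2 (-0.01 otherwise). No scaling moved the median of all probe sets tested by over 0.1. Between 14.9% and 17.4% of probe sets read under 16 on the 4 arrays compared, and differences among such dim transcripts could not be measured.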

Other observations

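Some probe sets of genes outside the lists also differed between H1093K and the empty vector. Cox7a2l, a protein of mitochondrial respiratory supercomplexes, was lower by each of its 3 probe sets, at -0.49, -0.61 and -0.42 on the log2 scale (limma, adjusted p = 0.029, 0.00904 and 0.0466). Npr3, the clearance receptor of natriuretic peptides, was lower by each of its 3 probe sets, at -0.46, -0.48 and -0.69 (limma, adjusted p = 0.0429, 0.0427 and 0.0443). Both genes were chosen after their values were seen, for having several probe sets past the threshold.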
